A study of Mus musculus with 24 samples.

Results

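Nuclear receptors are transcription factors whose genes are named by their relatedness or by the hormone they bind. A typical member joins DNA through a zinc-finger domain, often at copies of the motif AGGTCA, and carries a pocket for a small lipid-soluble ligand such as thyroid hormone, retinoic acid, vitamin D, a fatty acid, an oxysterol or a steroid. The retinoid X receptors (RXRs) serve as the common dimer partner of the thyroid hormone, retinoic acid, vitamin D, LXR and PPAR receptors, while several members, called orphans, have no agreed natural ligand. In the mammary gland these receptors are known for hormone control of the epithelium and for lipid metabolism in the surrounding fat pad.

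The 37 nuclear receptor genes described here were those whose Ensembl identifier in the count table carried a listed receptor symbol in the GENCODE M1 annotation, out of 37991 genes in the table. All 37 were found, and they do not make up the whole family. RNA came from whole mammary glands or tumors of female mice, frozen at week 6, 8, 10 or 12, with 3 PyMT and 3 FVB mice at each age and 24 samples in 8 groups. PyMT mice were F1 females heterozygous for a transgene of polyoma middle T antigen, driven in mammary epithelium by the MMTV promoter, on the FVB/N background, and FVB mice were females homozygous for that background without the transgene. The PyMT stages were hyperplasia at week 6, adenoma or mammary intraepithelial neoplasia (MIN) at week 8, and carcinoma at weeks 10 (early) and 12 (late). Directional libraries of RNA depleted of ribosomal RNA gave 6969375 to 13516601 counted reads per sample. Nothing says which mice shared a litter, so p-values measure the spread between these mice.

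Levels below are normalized counts, that is counts divided by DESeq2's size factor of the sample. Levels of different receptors are compared only after division by the exon length of the gene in kb. Sums over marker genes were not divided by exon length, so genes with high counts weigh most in them. Differences are log2 fold changes of PyMT over FVB from the quasi-likelihood test of edgeR, adjusted by the Benjamini-Hochberg method over 14918 genes, with their standard error (SE). A gene was called where the adjusted p was under 0.05 and the change was beyond 2-fold. Of the 37 receptor genes, 29 had a CPM (count scaled for library size) of at least 1 in at least 12 samples and were tested. Of these, 20 reached that level in all 24 samples. Another 6 (Rarb, Rorb, Rxrg, Esrrb, Nr4a3 and Nr5a2) reached it in 6 samples or fewer of 1 genotype and so entered the test through the genotype in which they were higher.

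The promoters of 3 receptors are shown first, because they belong to the receptors called lower in PyMT whose promoters hold a receptor motif that was searched for. They are the 250 bases before a RefSeq start site in GRCm38.p6, 5′ to 3′ on the strand of the gene, with the motif in capitals.
Rarb (chr14:16575477-16575726, minus strand), with a direct repeat spaced by 5 bases: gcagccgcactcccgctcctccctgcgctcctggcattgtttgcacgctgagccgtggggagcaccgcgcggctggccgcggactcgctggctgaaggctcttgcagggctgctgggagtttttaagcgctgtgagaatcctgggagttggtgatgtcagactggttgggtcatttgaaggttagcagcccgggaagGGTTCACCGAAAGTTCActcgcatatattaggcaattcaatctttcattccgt
Rxrg (chr1:167618015-167618264, plus strand), with the AGGTCA core: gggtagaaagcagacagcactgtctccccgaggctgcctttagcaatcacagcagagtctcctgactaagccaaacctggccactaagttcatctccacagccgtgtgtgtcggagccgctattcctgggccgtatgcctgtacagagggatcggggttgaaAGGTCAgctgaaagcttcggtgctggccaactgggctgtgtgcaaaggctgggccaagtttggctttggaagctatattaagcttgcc
Nr5a2 (chr1:136960449-136960698, minus strand), with the AGGTCA core: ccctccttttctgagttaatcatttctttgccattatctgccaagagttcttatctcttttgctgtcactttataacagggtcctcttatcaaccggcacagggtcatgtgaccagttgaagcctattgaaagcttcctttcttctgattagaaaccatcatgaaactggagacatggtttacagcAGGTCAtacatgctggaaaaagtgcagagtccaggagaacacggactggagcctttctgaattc
RefSeq promoters of 250 bases before to 50 after the start were matched for 35 of the 37 genes, all but Thra and Nr3c1. Searched on both strands, AGGTCA lay in 5340 of 32851 promoters of this length (16.3%) and in 9 of the 53 promoters of the receptor genes (17.0%). Those 9 belonged to Nr0b1, Nr1h4, Nr5a2, Nr6a1, Rara, Rarg, Rxra, Rxrg and Thrb. The repeat of GGTTCA and AGTTCA with any 5 bases between them is a form of the retinoic acid response element. It lay in 2 of 32851 promoters (0.00609%), 1 of which was that of Rarb, starting 53 bases before the start site. The letters searched are the half-sites of the Rarb element itself. Its match was therefore given in advance, and the low share says nothing about Rarb. AAAGGTCA, the motif named for the NR4A receptors, which contains AGGTCA, lay in 1.51% of promoters and in those of Rxra and Rxrg. TCAAGGTCA, the motif of the estrogen-related and NR5A receptors, which also contains AGGTCA, lay in 0.423% of promoters and in none of the 53. A match describes the letters of the window and is neither a site nor a cause.

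Across the 4 weeks, most tested receptors were at or below their FVB level in PyMT glands, and a small group stood far below. Thra, Nr2f2, Nr1h3, Rxrg, Ppara, Rarb, Esrrb and Nr5a2 were called lower, and Vdr and Esrrg were called higher, when the PyMT and FVB difference was averaged over the weeks in a fit of all 24 samples. These 10 of 29 genes (34.5%) stand beside 26.2% of all tested genes called in the same comparison, of which 8.70% were higher and 17.5% lower. Rxrg, Rarb, Esrrb and Nr5a2 entered the test mainly through their FVB samples, so their lower calls are not independent of the filter. The same holds for their calls at single weeks. With no fold limit, 17 receptors passed the adjusted p, 15 lower and 2 higher, beside 51.0% of all genes, 27.4% lower and 23.6% higher. The median log2 fold change of the 29 was -0.50, and that of all tested genes was -0.03. The log2 fold change was negative at every week for 17 of the 29, positive at every week for 2 and of mixed sign for 10. Scaling by library size alone raised the median of all genes by 0.29 and made 2064 higher and 2032 lower calls in place of 1298 and 2611, and the 10 calls were kept under it, while Nr3c1, Nr3c2, Rarg, Rxra and Ppard no longer passed. In 2 libraries, FVB replicate 3 of week 10 and PyMT replicate 2 of week 8, 4.40% and 2.87% of genes with a median CPM of 10 to 30 were at 0, and without both the same 10 receptors were called.

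**Figure D1:**
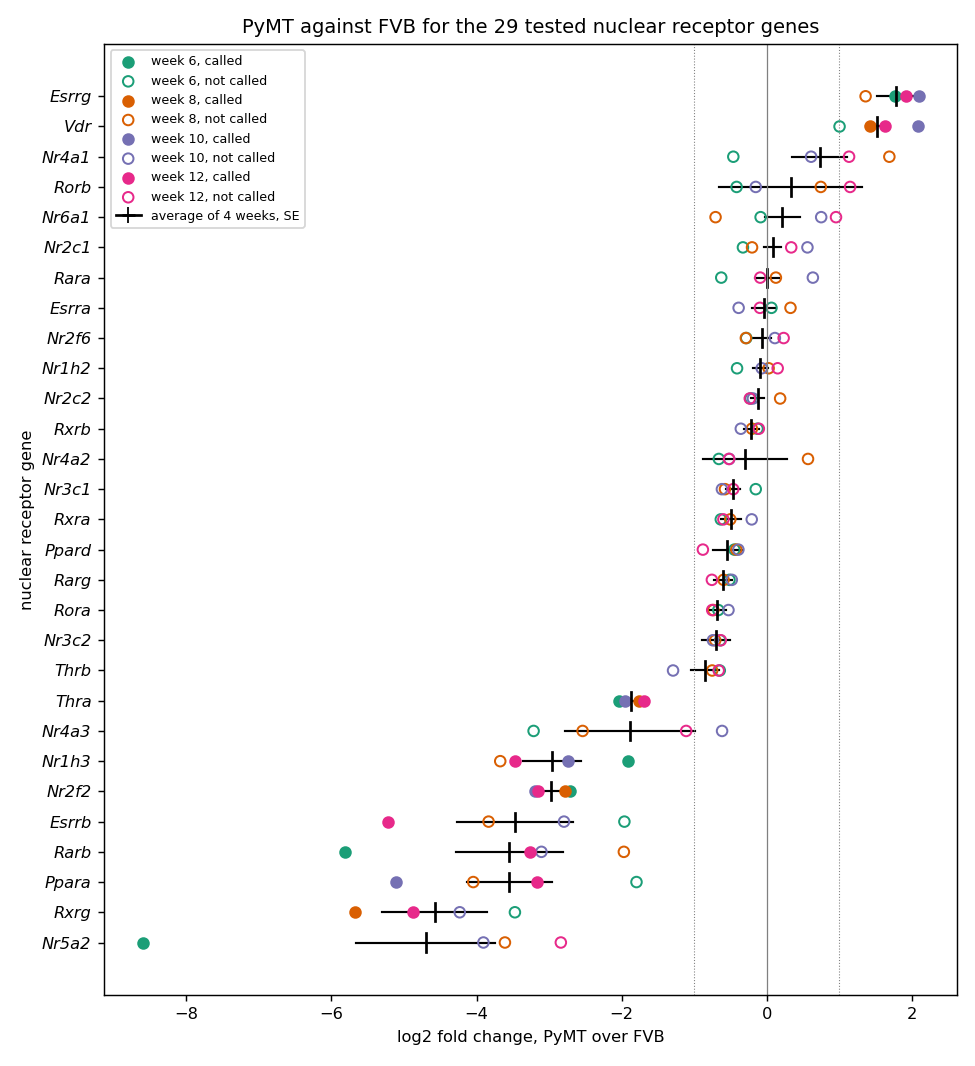
Log2 fold change of PyMT over FVB (x axis) for the 29 tested nuclear receptor genes (y axis, ordered by the average over 4 weeks). Circles are the 4 weeks, 3 mice per genotype, filled where the gene was called; black bars are the average with its SE, dotted lines mark 2-fold. Thra and Nr2f2 are filled at all 4 weeks, and the week 6 value of Nr5a2 is a fitted value against PyMT samples with no read.

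At single weeks 6 receptors were called at week 6 (20.7% of 29, beside 10.0% of all genes), 4 at week 8 (13.8%, beside 9.95%), 6 at week 10 (20.7%, beside 13.9%) and 9 at week 12 (31.0%, beside 20.7%). Thra and Nr2f2 were called at all 4 weeks, Nr1h3, Vdr and Esrrg at 3, Rxrg, Ppara and Rarb at 2, and Esrrb and Nr5a2 at 1. The other 19 tested receptors were called at no week. Groups that did not overlap were lower in PyMT for 13, 14, 12 and 14 receptors at weeks 6, 8, 10 and 12, beside 20.4%, 21.7%, 21.6% and 25.2% of all genes. They were higher for 2, 1, 4 and 4 receptors, beside 16.2%, 18.4%, 18.9% and 21.5%. Each of these counts is out of the 29 tested receptors. The lower counts include Rarb, Rxrg, Nr4a3, Nr5a2 and Esrrb at some weeks. These receptors entered the test mainly through their FVB samples, so the lower counts are not independent of the filter. The count at week 6 fell to 3 without PyMT replicate 3 or without any of the 3 FVB replicates. The count at week 8 fell to 1 without PyMT replicate 1 or FVB replicate 2, and to 2 without FVB replicate 3.

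Week 12, the latest stage, was tested against week 6, the earliest, and other pairs of weeks were not tested against each other. No receptor was called for a change of the PyMT and FVB difference from week 6 to week 12, for PyMT week 12 over week 6 or for FVB week 12 over week 6 by edgeR's quasi-likelihood test, where 0% of all genes were called. At an unadjusted p under 0.05 there were 1, 4 and 0 receptors, and 691, 1004 and 625 genes. DESeq2 called 10, 97 and 19 genes and no receptor.

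The thyroid hormone receptors are encoded by Thra and Thrb, which bind triiodothyronine and act with RXR. Thra (ENSMUSG00000058756, chr11:98601952-98630320, plus strand of mm9) was the receptor with the smallest adjusted p. At week 6 the PyMT samples had 224, 173 and 219.6 normalized counts and the FVB samples 984, 753 and 779. At week 8 they had 242, 252 and 292 against 975, 766 and 946. At week 10 they had 229, 242 and 209.8 against 801, 829.6 and 1102. Every PyMT sample lay below every FVB sample at these weeks. At week 12 the PyMT samples had 262, 335 and 269.8 and the FVB samples 884, 948 and 1062, again without overlap. PyMT over FVB, the log2 fold change was -2.03 (SE 0.23, adjusted p = 0.00209) at week 6, -1.76 (SE 0.21, adjusted p = 0.00507) at week 8, -1.95 (SE 0.21, adjusted p = 0.000985) at week 10 and -1.69 (SE 0.18, adjusted p = 0.00046) at week 12 by edgeR. Averaged over the weeks it was -1.87 (SE 0.09, adjusted p = 4.67e-12). Of the exon bases of Thra, 5.7% overlap those of a gene on the opposite strand, and the strand setting of the counting is not given in the sources used here. Thrb was lower by a smaller amount, with a lowest, median and highest of 106, 219 and 261 in PyMT and 209, 332 and 626 in FVB and an averaged log2 fold change of -0.85 (SE 0.19, adjusted p = 0.000704). Its groups did not overlap at any week, although at no week was it called.

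In whole tissue, fewer cells of a type and less RNA per cell cannot be told apart, and the tissue of the genotypes differed in its cell type markers, called here in the comparison averaged over the weeks. The 8 adipocyte markers (such as Adipoq and Plin1) were all called lower in PyMT, with a summed level of 1014 to 15456 normalized counts in the PyMT samples, against 46492 to 129890 in the FVB samples. The 6 fibroblast markers summed to 15703 to 34704 against 43246 to 147010, and the 6 endothelial markers to 684 to 1777 against 3991 to 7237, and both lists were called lower in full. The 10 skeletal muscle markers were also all called lower, with sums of 0 to 31863 against 92.5 to 568770, and so were the 5 brown fat markers, with sums of 115 to 5595 and 185 to 12624. Of the 8 luminal epithelial markers 6 were called higher, with sums of 21656 to 40983 against 4338 to 19743, and none was at 0. With no fold limit, 7 of them passed the adjusted p as higher and 1 as lower. Of the 6 basal markers 3 were called lower, with sums of 1160 to 5475 against 2491 to 10701. None of the 5 macrophage markers found was called on average, with sums of 1798 to 3602 against 1956 to 5076, although 2 of them, Csf1r and Mrc1, passed the adjusted p as lower and were called lower at week 10. Of the 6 lymphocyte markers 1 was tested and it was not called, with sums of 0 to 79.6 and 14.0 to 98.4, and Cd79a and Ms4a1 had a median of 0. The part of these cell types in the receptor differences was not tested.

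Of the retinoid X receptors, Rxrg alone was called. Rxrg (ENSMUSG00000015843, chr1:169528515-169569754, plus strand of mm9), the RXR known for its place in muscle and brain, whose promoter with the AGGTCA core is shown above, had 0, 3.31 and 34.7 normalized counts as lowest, median and highest of 12 PyMT samples and 38.4, 96.8 and 239 in FVB. No PyMT sample reached an FVB sample, and 5 PyMT samples had no read. At week 8 the PyMT samples had 0, 0 and 4.71 and the FVB samples 203, 38.4 and 53.1, and the log2 fold change was -5.67 (SE 1.49, adjusted p = 0.0486) by edgeR. At week 12 they had 0, 3.21 and 9.24 and 223, 85.7 and 92.9, with a log2 fold change of -4.88 (SE 0.96, adjusted p = 0.00737). Averaged over the weeks the log2 fold change was -4.58 (SE 0.73, adjusted p = 2.13e-05). At week 8 the call was lost when any sample but PyMT replicate 3 was left out, and also with library size only (adjusted p = 0.0542 by edgeR), and that of week 12 was kept in each fit without 1 sample. Rxra, the RXR with the highest level here, had 611, 1108 and 1422 in PyMT and 1059, 1501 and 2011 in FVB, which overlap, with an averaged log2 fold change of -0.49 (SE 0.14, adjusted p = 0.00438) that was under 2-fold. Rxrb had a value of -0.21 (SE 0.10, adjusted p = 0.0931) and did not pass, though it did without FVB replicate 2 of week 8 (-0.25) or PyMT replicate 3 of week 12 (-0.26).

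Among the retinoic acid receptors, which bind all-trans retinoic acid, Rarb alone was called. Rarb (ENSMUSG00000017491, chr14:17263356-17651381, minus strand of mm9), itself a known target of retinoic acid through the repeat shown above, had 0, 1.04 and 2.27 normalized counts in the PyMT samples of week 6 and 125, 45.5 and 45.8 in the FVB samples. At week 12 it had 0, 12.8 and 11.1 in PyMT and 102, 44.1 and 96.2 in FVB. The groups did not overlap at weeks 6, 8 and 12 and overlapped at week 10, where 1 PyMT sample had 20.5 and 1 FVB sample 13.0. Tested by edgeR, its log2 fold change was -5.81 (SE 1.26, adjusted p = 0.022) at week 6 and -3.26 (SE 1.03, adjusted p = 0.0471) at week 12, and -3.55 (SE 0.73, adjusted p = 0.000381) on average. The call of week 6 was lost without any of the FVB replicates of that week, and that of week 12 without PyMT replicate 2 or 3 or FVB replicate 1 or 3. Week 12 was also lost with library size only (adjusted p = 0.0563 by edgeR) and in the fit of all 24 samples (adjusted p = 0.111). Rarg, the receptor of epithelium and skin, was lower, with an averaged value of -0.60 (SE 0.12, adjusted p = 0.000426) and was under 2-fold, with 206, 417 and 494 as lowest, median and highest in PyMT and 380.3, 623 and 808 in FVB. Rara, the most widely expressed of the group, had an averaged value of 0.00 (SE 0.17, adjusted p = 0.997). Its log2 fold changes were -0.63 (SE 0.35, adjusted p = 0.291) at week 6 and 0.64 (SE 0.31, adjusted p = 0.217) at week 10, neither of which passed.

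**Figure D2:**
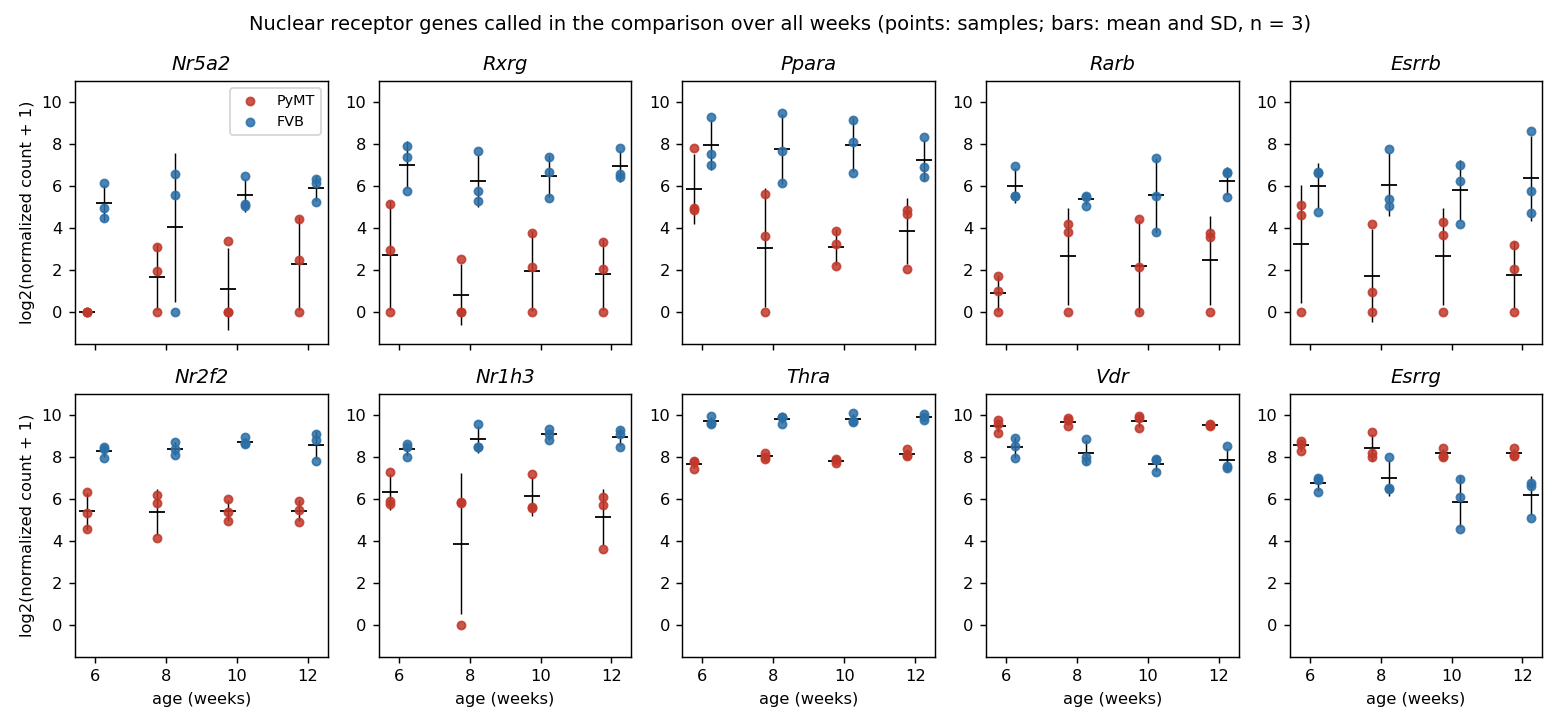
Each point is a sample of the 10 called receptors, PyMT in red and FVB in blue, at 4 ages in weeks (x axis), on a log2(normalized count + 1) scale (y axis); bars are the mean and SD of 3 mice. PyMT points lie below all FVB points for Thra, Nr2f2, Nr1h3 and Rxrg and above them for Vdr.

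Among the receptors of oxysterols, the LXRs, Nr1h3 was called lower and Nr1h2 was not called. Nr1h3 (ENSMUSG00000002108, chr2:91024218-91042991, minus strand of mm9) encodes LXR alpha, an oxysterol receptor of adipose tissue, liver and macrophages. At week 6 the PyMT samples had 54.3, 157 and 59 normalized counts and the FVB samples 362, 252 and 388. At week 8 they had 55.3, 0 and 56.5 against 763, 354 and 362. The value of 0 came from PyMT replicate 2 of week 8, a library in which 2.87% of genes with a median CPM of 10 to 30 were at 0. At week 10 the values were 48.9, 145 and 46.1 against 638, 448 and 552. At week 12 they were 11.3, 51.3 and 68.4 against 620.2, 352 and 553. No PyMT sample of any week reached the lowest FVB sample. Its log2 fold change by edgeR was -1.91 (SE 0.46, adjusted p = 0.0319), -3.67 (SE 1.05, adjusted p = 0.0633), -2.74 (SE 0.48, adjusted p = 0.00724) and -3.48 (SE 0.57, adjusted p = 0.00313) at the 4 weeks in order, and -2.96 (SE 0.40, adjusted p = 2.54e-06) on average. At week 6 the call was lost when any sample but PyMT replicate 2 was left out, with library size only (adjusted p = 0.0562 by edgeR) and in the fit of all 24 samples (adjusted p = 0.0953). Nr1h2, the LXR beta gene, which is expressed in most tissues, had an averaged value of -0.09 (SE 0.11, adjusted p = 0.534), with 365, 487 and 737 in PyMT and 295, 556 and 608 in FVB, and did not pass.

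The PPARs are receptors for fatty acids and their derivatives. Ppara (ENSMUSG00000022383, chr15:85565413-85633249, plus strand of mm9), which drives fatty acid oxidation in liver, brown fat and muscle, had 3.56, 13.6 and 8.53 normalized counts in the PyMT samples of week 10 and 96.3, 276 and 560.2 in the FVB samples. At week 12 it had 24.7, 3.21 and 27.7 against 320.2, 121 and 84.2. The groups did not overlap at weeks 8, 10 and 12, while at week 6 PyMT replicate 2 had 221 and lay among the FVB samples. By edgeR the log2 fold change was -5.11 (SE 0.81, adjusted p = 0.00492) at week 10 and -3.17 (SE 0.79, adjusted p = 0.0198) at week 12, and -3.55 (SE 0.59, adjusted p = 3.72e-05) on average. The call of week 12 was lost without PyMT replicate 3 or FVB replicate 1 and in the fit of all 24 samples (adjusted p = 0.0551 by edgeR). Ppard, the ubiquitous PPAR, had 115, 180.0 and 203 in PyMT and 106, 243 and 475 in FVB and an averaged log2 fold change of -0.55 (SE 0.20, adjusted p = 0.0285) that no longer passed when any of 8 samples was left out, PyMT replicate 2 of weeks 8, 10 and 12, FVB replicates 1 and 3 of week 6, FVB replicate 3 of week 8 or FVB replicate 2 of weeks 10 and 12, or when no filter on low counts was used (adjusted p = 0.0569 by edgeR).

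**Figure D3:**
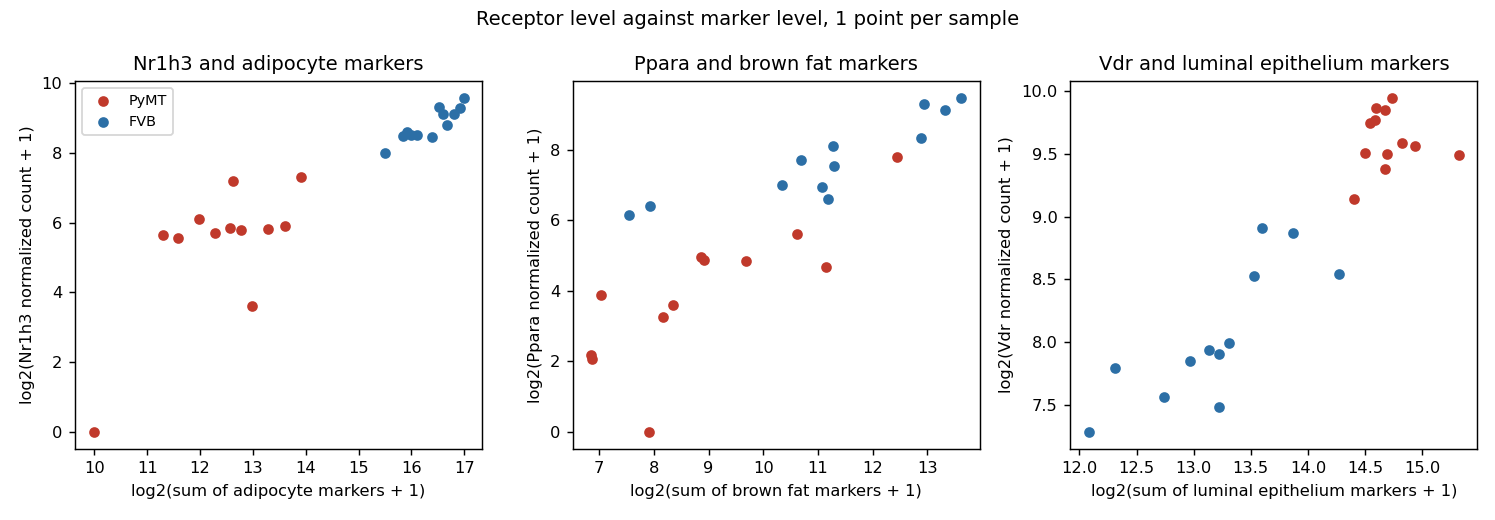
Each point is a sample (PyMT in red, FVB in blue) at log2(sum of marker normalized counts + 1) on the x axis and log2(receptor normalized count + 1) on the y axis. Nr1h3 rises with adipocyte markers in FVB, Ppara with brown fat markers in both genotypes and Vdr with luminal markers in FVB, as given in the text.

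Levels of the 10 called receptors were set against the summed level of 8 marker lists within each genotype, on the log2(normalized count + 1) scale, over 12 mice. Of these 160 relations 6 had an adjusted Pearson p under 0.05, each from a permutation test of 100000 resamples. In FVB, Nr1h3 followed the adipocyte markers with r = 0.897 (permutation p = 0.00013, adjusted p = 0.0104) and rho = 0.832 (permutation p = 0.00144, adjusted p = 0.0461). With the 2 most extreme marker values left out r was 0.832, and within weeks it was 0.889. In FVB, Ppara followed the brown fat markers with r = 0.886 (permutation p = 6e-05, adjusted p = 0.0096) and rho = 0.895 (permutation p = 0.00019, adjusted p = 0.0304), with r = 0.883 once the 2 most extreme samples were left out and 0.900 within weeks. In PyMT, Ppara followed the adipocyte markers with r = 0.883 (permutation p = 0.00028, adjusted p = 0.0149) and 0.708 with the 2 most extreme samples left out. It followed the brown fat markers in PyMT with r = 0.796 (permutation p = 0.00163, adjusted p = 0.0456), where the adjusted p of rho was 0.0515. In FVB, Vdr followed the luminal markers with r = 0.803 (permutation p = 0.0017, adjusted p = 0.0456), and the basal markers with r = 0.804 (permutation p = 0.00171, adjusted p = 0.0456). The skeletal muscle list was not used, because its FVB samples fell into separate clusters. FVB replicate 1 of weeks 6 and 12 and replicate 3 of week 10 were highest in muscle markers (532314, 324656 and 568766). Their brown fat sums were 7881, 7616 and 10308, and Ppara was at 626, 320 and 560. FVB replicate 1 of week 8 was low in muscle markers (670) and highest in brown fat markers and Ppara (12624 and 706). The part of muscle in these relations was not tested. These relations are between levels in the same libraries.

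The vitamin D receptor was called higher in PyMT. Vdr (ENSMUSG00000022479, chr15:97684856-97741061, minus strand of mm9), which binds calcitriol and is expressed in mammary epithelium, had 869.8, 562 and 768 normalized counts in the PyMT samples of week 6 and 245, 481 and 368 in the FVB samples. At week 8 it had 856, 718 and 921 against 221, 254 and 467. At week 10 it had 929, 985 and 666 against 230.0, 238 and 155. Every PyMT sample lay above every FVB sample. At week 12 the PyMT samples had 724, 728 and 754 and the FVB samples 188, 372 and 178. PyMT over FVB, the log2 fold change by edgeR was 1.00 (SE 0.29, adjusted p = 0.0631), 1.42 (SE 0.31, adjusted p = 0.0275), 2.09 (SE 0.27, adjusted p = 0.00191) and 1.63 (SE 0.29, adjusted p = 0.00488) at the 4 weeks in order, and 1.52 (SE 0.16, adjusted p = 7.89e-08) on average. At week 8 the call was lost without PyMT replicate 1 or 3 or FVB replicate 2. Over 12 against 12 samples Vdr was the only receptor with all PyMT samples higher (beside 4.67% of all genes), and Thra, Nr1h3, Rxrg and Nr2f2 were the 4 with all lower (beside 7.22%). Of these, Rxrg entered the test mainly through its FVB samples, so its place among them is not independent of the filter.

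Neither of the tested steroid receptors was called. Nr3c1, the glucocorticoid receptor, had 1217, 1727 and 2002 normalized counts as lowest, median and highest in PyMT and 1769, 2282 and 2994 in FVB, with an averaged log2 fold change of -0.46 (SE 0.10, adjusted p = 0.000444) by edgeR that was under 2-fold. Nr3c2, the mineralocorticoid receptor, had -0.69 (SE 0.19, adjusted p = 0.0047). Esr2, the estrogen receptor beta gene, was too low to be tested, with 196 reads in 9 of 12 PyMT samples and 5 reads in 3 of 12 FVB samples. Per kb of exon Nr3c1 was the highest of the 37 receptors in both genotypes, with a median of 307 in FVB and 233 in PyMT, and Rxra was the next, with 275 and 203. Thra was the third in FVB, with 198, and ranked 14 in PyMT, with 52.5, and Nr1h3 ranked 4 in FVB and 19 in PyMT. Vdr ranked 20 in FVB, with 42.7, and 4 in PyMT, with 135. Neighbours in these orders overlap in their ranges over samples.

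Of the estrogen-related receptors, which are orphans, Esrrg was called higher and Esrrb lower. Esrrg (ENSMUSG00000026610, chr1:189432670-190038764, plus strand of mm9), known for control of mitochondrial genes, had 439, 393 and 311 normalized counts in PyMT and 121, 129.6 and 81.1 in FVB at week 6. At week 8 it had 290.0, 579 and 254 against 256, 88.4 and 91.5. The groups overlapped by a narrow margin at week 8 only. At week 10 it had 259, 267 and 345 against 66.8, 23 and 124. At week 12 it had 264, 345 and 274 against 109, 98.3 and 33.9. Tested by edgeR, its log2 fold change was 1.77 (SE 0.30, adjusted p = 0.00875), 1.36 (SE 0.51, adjusted p = 0.128), 2.10 (SE 0.58, adjusted p = 0.0452) and 1.93 (SE 0.43, adjusted p = 0.012) at the 4 weeks in order, and 1.78 (SE 0.26, adjusted p = 6.94e-06) on average. The call of week 10 was lost without any PyMT replicate or FVB replicate 1. Esrrb (ENSMUSG00000021255, chr12:87702067-87862578, plus strand of mm9), known from stem cells, had 0, 3.21 and 8.32 in PyMT at week 12 and 53.8, 393 and 25.1 in FVB. Its log2 fold change was -5.22 (SE 1.32, adjusted p = 0.0206) at week 12 and -3.47 (SE 0.80, adjusted p = 0.00105) on average. At week 12 the call was lost without PyMT replicate 1 or 2 or FVB replicate 2, the last giving -3.29. The groups of Esrrb overlapped at weeks 6 and 10 and not at weeks 8 and 12. Weeks 6, 8 and 10 did not pass, with adjusted p of 0.369, 0.150 and 0.251 by edgeR. Esrra, the broadly expressed member, had -0.03 (SE 0.17, adjusted p = 0.884) and did not pass.

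The NR2F genes, also called COUP-TFs, are orphans of mesenchyme and vessels. Nr2f2 (ENSMUSG00000030551, chr7:77496832-77511621, minus strand of mm9), which is needed for vein identity, had 80.1, 22.9 and 39.7 normalized counts in PyMT and 357, 247 and 333 in FVB at week 6. At week 8 it had 55.3, 16.9 and 72.9 against 418, 272 and 338. At week 10 it had 62.3, 30.4 and 40.9 against 391, 489 and 401. The PyMT samples were below the FVB samples at every week. At week 12 it had 44.2, 59.8 and 29.6 against 227, 543 and 451. Its log2 fold change by edgeR was -2.71 (SE 0.49, adjusted p = 0.0112), -2.78 (SE 0.55, adjusted p = 0.0189), -3.20 (SE 0.38, adjusted p = 0.00136) and -3.15 (SE 0.41, adjusted p = 0.0012) at the 4 weeks in order, and -2.97 (SE 0.25, adjusted p = 3.98e-09) on average. At week 6 the call was lost without PyMT replicate 3, and that of week 8 without PyMT replicate 1 or FVB replicate 2 or 3. Nr2f6 had an averaged value of -0.07 (SE 0.13, adjusted p = 0.688) and did not pass, and 54.4% of its exon bases overlap a gene on the opposite strand. Nr2f1 was too low to be tested, with 43 reads in 4 of 12 PyMT samples and 508 reads in 11 of 12 FVB samples. At week 6, where no PyMT sample had a read, it was at least 33.1-fold lower in PyMT with a floor of 3 counts over the group. The FVB samples of that week had 5.8, 47.0 and 24.7 normalized counts. In a fit with no filter on low counts the difference of Nr2f1 at week 6 had an adjusted p of 0.0742 by edgeR and did not pass. Its averaged difference in that fit had an adjusted p of 0.000159.

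Nr5a2 (ENSMUSG00000026398, chr1:138740161-138857004, minus strand of mm9), a receptor of liver and steroid-producing tissue whose promoter is shown above, had 0, 0 and 0 normalized counts in the PyMT samples of week 6 and 30.1, 21.6 and 70.5 in the FVB samples. With a floor of 3 counts over the PyMT group it was at least 52.2-fold lower there, and edgeR gave an adjusted p of 0.0307. At week 12 it had 0, 20.3 and 4.62 against 80.7, 36.5 and 68.9, with a log2 fold change of -2.84 (SE 1.16, adjusted p = 0.104). The average over weeks passed with an adjusted p of 0.000414, and its fitted size of -4.70 rests in part on week 6, where no PyMT sample had a read, and so is no measure of the fold. The groups did not overlap at weeks 6, 10 and 12, and FVB replicate 1 of week 8 was at 0. The call of week 6 was lost when any sample but PyMT replicate 2 was left out.

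None of the remaining tested orphans was called. Rora, which takes part in the circadian clock and immune cells, had -0.68 (SE 0.11, adjusted p = 4.37e-05) on average by edgeR, passed the adjusted p and stayed under 2-fold, with groups that did not overlap at any week. The immediate early genes Nr4a1, Nr4a2 and Nr4a3 had averaged values of 0.73 (SE 0.38, adjusted p = 0.112), -0.29 (SE 0.58, adjusted p = 0.701) and -1.88 (SE 0.90, adjusted p = 0.0874). Nr4a1 would have passed without FVB replicate 1 of week 6 (1.00) or of week 12 (1.07), or with library size only (1.13), Nr4a3 without PyMT replicate 2 of week 6 (-2.50) or with DESeq2 (-1.91), and Nr2c1 with library size only (0.38). Nr2c1, Nr2c2, Nr6a1 and Rorb had averaged values of 0.08, -0.13, 0.22 and 0.33 and did not pass, and 38.6% of the exon bases of Nr2c2 overlap a gene on the opposite strand. The untested genes besides Nr2f1 and Esr2 had few reads in all 24 samples, with 52 for Nr1h4, 36 for Nr2e3, 6 for Hnf4a, 3 for Nr0b2, 2 for Nr1i3 and 0 for Nr0b1.

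Within families some receptors made up different median shares in the genotypes, while others, such as Rarg with 66.5% of the RAR sum in FVB and 64.7% in PyMT, Nr3c1 with 84.8% and 86.9% of the NR3C sum and Rora with 99.4% and 98.2% of the ROR sum, were close and overlapped. Shares are percents of the summed normalized counts per kb of the family's genes among the 37 in a sample, given as medians of 12 samples and without a test. Rxrg made up 10.7% (3.69% to 19.4%) of the RXR sum in FVB and 0.46% (0% to 4.89%) in PyMT, with overlap. Nr1h3 made up 49.4% (41.9% to 77.6%) of the LXR sum in FVB and 13.2% (0% to 33.5%) in PyMT, without overlap. Ppara made up 51.2% (23.5% to 83.8%) of the sum of Ppara and Ppard in FVB. In PyMT the share of Ppara was 13.3% (0% to 60.1%), with overlap. Rxra and Rxrb, Nr1h2 and Ppard made up the rest of these sums. Thra made up 79.7% (70.7% to 84.6%) of the thyroid hormone receptor sum in FVB and 64.0% (52.4% to 74.0%) in PyMT, with overlap. That sum had a median of 252 in FVB and 85.9 in PyMT. Esrrg made up 8.47% (1.71% to 19.5%) of the estrogen-related receptor sum in FVB and 25.3% (21.4% to 37.8%) in PyMT, without overlap, and the sum had a median of 181 in FVB and 184 in PyMT. Nr2f2 made up 30.1% of the NR2F sum in FVB and 5.95% in PyMT, also without overlap.

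**Figure D4:**
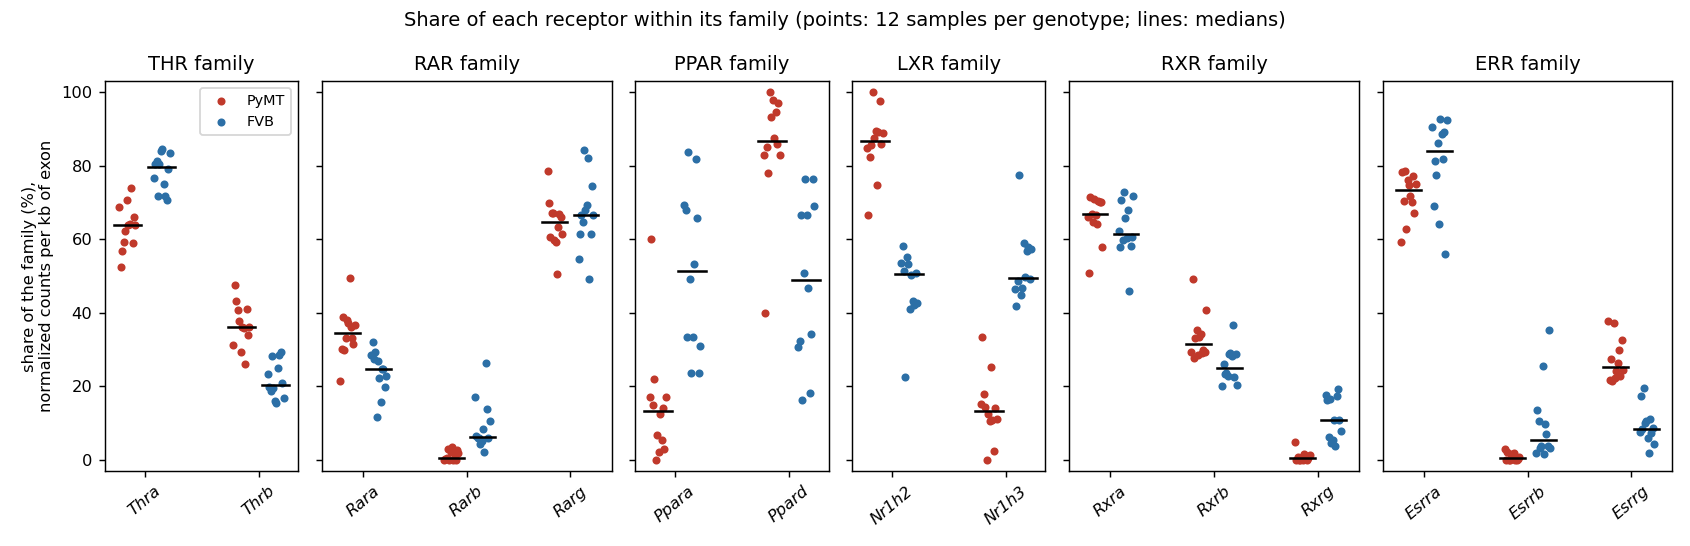
Share (y axis, percent of the family's normalized counts per kb of exon) of each receptor (x axis) in 6 families; each point is 1 of 12 samples per genotype and lines are medians. The shares of Rxrg, Ppara, Nr1h3 and Rarb have lower medians in PyMT, and that of Esrrg lies above all FVB samples.

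Genes that work with the receptors were counted in the averaged comparison, where 8.70% of all tested genes were called higher and 17.5% lower. Coregulators, the coactivators and corepressors that receptors recruit, moved in both directions by amounts mostly under 2-fold, with 1 of 28 called higher and 3 lower, 8 higher and 11 lower at the adjusted p with no fold limit, and a median log2 fold change of -0.06. Cited2, a CREB-binding protein partner, had 485, 609 and 831 normalized counts as lowest, median and highest in PyMT and 121, 272 and 391 in FVB, with a log2 fold change of 1.29 (SE 0.15, adjusted p = 5.65e-07) by edgeR. Nrip1, a corepressor of energy metabolism, had 865, 1253 and 1761 against 1860.1, 2830.1 and 3946 and -1.05 (SE 0.12, adjusted p = 2.87e-07). Neither overlapped between the genotypes. The demethylase Kdm1a (0.72 (SE 0.09, adjusted p = 1.01e-06)) and the deacetylase Hdac3 (0.73 (SE 0.10, adjusted p = 4.35e-06)) passed the adjusted p under 2-fold.

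Of 30 tested ligand handling genes, 4 were called higher and 10 lower, with a median log2 fold change of -0.04. Of 13 tested retinoid genes 1 was called higher and 5 lower. Crabp2, which carries retinoic acid to its receptor, had 288, 514 and 816 in PyMT and 13.9, 69 and 202 in FVB, and its log2 fold change was 2.78 (SE 0.31, adjusted p = 2.12e-07) by edgeR. Rbp4, the plasma retinol carrier made by fat, had 0, 31.1 and 109.7 against 369, 612 and 1346 and -4.41 (SE 0.49, adjusted p = 1.88e-07). Dhrs3, a retinal reductase, and Aldh1a1, a retinal dehydrogenase, had -1.57 (SE 0.15, adjusted p = 1.5e-08) and -3.50 (SE 0.62, adjusted p = 7.2e-05). Of the thyroid hormone genes 3 of 7 were tested, and the transporter Slc16a10, with -2.51 (SE 0.22, adjusted p = 7.06e-09), and the deiodinase Dio2, with -1.05 (SE 0.38, adjusted p = 0.0255), were called lower. Dio2 is also in the brown fat list.

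Of 8 tested corticoid genes the chaperone Hsp90aa1, which holds steroid receptors ready for ligand, was called higher, with 1885, 2455 and 3295 in PyMT, 775, 1067 and 1483 in FVB and 1.33 (SE 0.10, adjusted p = 1.32e-09) by edgeR. The cortisone reductase Hsd11b1 and H6pd, which supplies its cofactor, were called lower, with -3.19 (SE 0.33, adjusted p = 7.77e-08) and -2.93 (SE 0.19, adjusted p = 1.13e-10). The cochaperone Fkbp4 passed under 2-fold, with 0.89 (SE 0.13, adjusted p = 6.19e-06). Of 2 tested vitamin D genes Cyp24a1, the enzyme that breaks down calcitriol and a target of the vitamin D receptor, had 28.2, 91.1 and 227 in PyMT and 0, 0.631 and 52.9 in FVB, with 4.89 (SE 0.74, adjusted p = 1.12e-05). The ranges overlapped. Cyp27a1, a sterol hydroxylase, had -1.51 (SE 0.32, adjusted p = 0.000552). None of 4 oxysterol genes was called by edgeR.

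**Figure D5:**
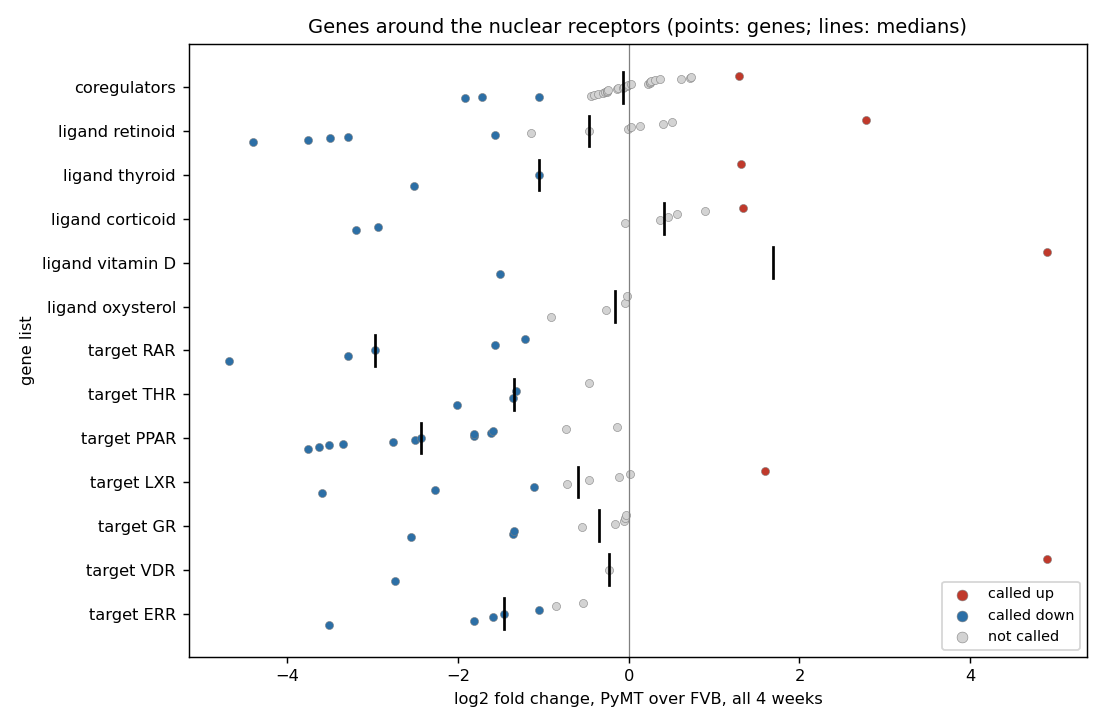
Averaged log2 fold change of PyMT over FVB (x axis) for the tested genes of the coregulator, ligand and target lists (y axis); points are genes, coloured where called, and black lines are list medians. All called genes of the PPAR and RAR target lists lie below 0, and Cyp24a1, in 2 lists, lies farthest above 0.

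Of 45 tested genes known as targets of these receptors, 2 were called higher and 28 lower, with a median log2 fold change of -1.35. All 5 tested RAR targets were called lower, among them Rarres2, an adipokine (-2.97 (SE 0.19, adjusted p = 7.3e-11)), Tgm2, a transglutaminase (-1.22 (SE 0.15, adjusted p = 1.02e-06)), and Rarres1 (-4.68 (SE 0.72, adjusted p = 1.4e-05)). Of 13 tested PPAR targets 11 were called lower, among them the fatty acid translocase Cd36 (-3.63 (SE 0.26, adjusted p = 3.12e-10)), the lipid chaperone Fabp4 (-3.76 (SE 0.31, adjusted p = 3.05e-09)) and Angptl4 (-2.51 (SE 0.27, adjusted p = 1.38e-07)), all by edgeR and without overlap between the genotypes. Fabp4 is also in the adipocyte list. The LXR targets were divided, with Srebf1, a regulator of lipid synthesis, called higher (1.59 (SE 0.16, adjusted p = 5.34e-08)) and the desaturase Scd1 (-3.59 (SE 0.22, adjusted p = 4.25e-11)), the transfer protein Pltp (-2.27 (SE 0.17, adjusted p = 8.19e-10)) and the cholesterol exporter Abca1 (-1.11 (SE 0.12, adjusted p = 1.11e-07)) called lower of 8.

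Of 4 thyroid hormone receptor targets 3 were called lower by edgeR, Klf9 (-1.35 (SE 0.19, adjusted p = 3.95e-06)), malic enzyme Me1 (-2.01 (SE 0.35, adjusted p = 6.16e-05)) and Thrsp (-1.32 (SE 0.35, adjusted p = 0.00313)), and the corepressor Hr passed under 2-fold (-0.46 (SE 0.10, adjusted p = 0.000484)). Of 8 glucocorticoid receptor targets 3 were called lower, Klf9, Zbtb16 (-2.54 (SE 0.43, adjusted p = 4.19e-05)) and the phosphatase Dusp1 (-1.34 (SE 0.25, adjusted p = 0.000117)), and Tsc22d3 had -0.54 (SE 0.25, adjusted p = 0.0788). Of 3 vitamin D receptor targets Cyp24a1 was called higher, the calcium channel Trpv6 was called lower (-2.73 (SE 0.80, adjusted p = 0.00787)) and Slc37a2 did not pass (-0.23 (SE 0.27, adjusted p = 0.493)). Of 7 tested estrogen-related receptor targets 5 were called lower, with the mitofusin Mfn2 (-1.59 (SE 0.21, adjusted p = 1.99e-06)), Acadm (-1.81 (SE 0.29, adjusted p = 2.16e-05)), Pdk4 (-3.52 (SE 0.59, adjusted p = 3.82e-05)) and Sod2 (-1.05 (SE 0.22, adjusted p = 0.000539)) the 4 of smallest p. These target lists share genes with each other and with the marker lists, and no list was tested as a whole.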

How the data were processed

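Whole glands or tumors of 24 mice were sequenced, and genotype and week gave the groups. Per the labels and the study's methods, reads were trimmed and placed on mm9 with GSNAP, and HTSeq assigned them to Ensembl genes. The authors deposited raw counts, with no normalization. Whether the counting used the strand is not given in the sources used here. Every count column belonged to 1 sample.

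Symbols, coordinates and exon lengths came from GENCODE M1 on mm9, and promoters from RefSeq on GRCm38.p6. Tests were run with edgeR 4.0.16 and DESeq2 1.42.0 under R 4.3.3, and other steps in Python 3.11.15 with pandas 2.3.3 and SciPy 1.17.1. Testing was limited to the 14918 genes whose CPM reached 1 in 12 or more of the 24 samples. At each week 3 PyMT and 3 FVB samples were compared by edgeR's quasi-likelihood test after TMM scaling, with Benjamini-Hochberg adjustment over all tested genes. The average over weeks and the changes between weeks came from a fit of 24 samples in 8 groups. The SE was the size of the log2 fold change over the square root of F. Depth was 6969375 to 13516601 counts per sample, and intervals and floors of 3 counts cover counting error only.

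The 37 receptors and the lists were chosen with earlier results of these data known. Any receptor could be named, with full values for those called at least once, and at most 4 genes of each other list, those of smallest p in the averaged comparison. Bco1 and Adgre1 were not found in the annotation. On simulated data of 14918 genes, pooled over 3 runs, the fit was tested on 600 genes changed 4-fold. It recovered 497 of 600 in the average over weeks (82.8%), with 11 of 508 calls wrong. At week 12 it recovered 264 of 600 (44.0%), with 15 of 279 wrong. Few genes were changed in each run, with equal numbers higher and lower. These rates need not hold for the real data, where 26.2% of genes were called in the average and more were lower. Alternatives were RLE size factors, DESeq2's Wald test, no filter, library size only, a replicate block, all 24 samples in one fit for single weeks, and each sample left out in turn. The authors' gene lists were not used. Values of a few list genes are not reported here.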

Additional observations from a re-analysis of the deposited data

Results flagged for a closer look

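Rara, the retinoic acid receptor alpha gene, was lower in PyMT at week 6, with a log2 fold change of -0.63, and higher at week 10, with 0.64. The 3 PyMT samples of week 6, with 107.7 to 242 normalized counts, all lay below the 3 FVB samples, with 289 to 315, and at week 10 its PyMT samples, with 225 to 299.8, all lay above the FVB samples, with 138 to 211. The adjusted p from edgeR was 0.291 and 0.217 in that order, and the difference between these weeks was not tested.

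Esr2, the estrogen receptor beta gene, was below the level needed for a test and had 196 reads over the 12 PyMT samples and 5 over the 12 FVB samples. Its normalized count had a median of 13.1 and a highest value of 33.5 in PyMT, and a median of 0 and a highest value of 2.64 in FVB. At week 10, where no FVB sample had a read, it was at least 19.6-fold higher in PyMT with a floor of 3 counts over the FVB group. In a fit with no filter on low counts the adjusted p of Esr2 by edgeR was 0.143 at week 10 and 0.0546 at week 12, and no single week passed. Its averaged difference in that fit had an adjusted p of 0.00198.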

How the results depend on the processing

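The count of called receptors stayed within 1.5 times its value under every alternative for weeks 10 and 12, the average and the changes between weeks. At week 6 it was 3 in place of 6 with a replicate block, and at week 8 it was 7 with DESeq2 and 8 with no filter in place of 4. Leaving out 1 sample gave 3 to 9 called receptors at week 6, 1 to 4 at week 8, 5 to 6 at week 10, 7 to 8 at week 12, 10 to 11 for the average and 0 for each change between weeks. The cause was not tested. The samples were not treated as paired, because the labels give no shared litter, batch or day and 4 of 12 same-numbered pairs had a correlation of deviations over 0.1 (range -0.03 to 0.18). Of 24 samples 14 correlated best with their own number, where an even choice would give 8, which is a hint from the data that the numbers may share something. The replicate block lost the calls of Nr1h3 (adjusted p = 0.0629), Nr5a2 (0.124) and Rarb (0.0823) at week 6, Rxrg at week 8 (0.0866) and Rarb at week 12 (0.0964), all by edgeR, and kept the other calls.

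The averaged log2 fold change of 6 receptors that did not pass turned positive under library size only, 0.29 for Esrra, 0.20 for Nr1h2, 0.17 for Nr2c2, 0.23 for Nr2f6, 0.030 for Nr4a2 and 0.094 for Rxrb. Esrra was also at 0.0075 with the replicate block, and Rara at -0.016 with DESeq2 and with RLE. Leaving out 1 sample turned the sign of Esrra (range -0.12 to 0.089), Nr2f6 (-0.13 to 0.0047), Rara (-0.080 to 0.080) and Rorb (-0.87 to 1.08), none of which passed. All 10 averaged calls and all 4 weekly calls of Thra were kept in each alternative. Counts of a few reads limit Nr5a2, Rarb, Rxrg and Esrrb in PyMT, where 4 to 7 samples had none.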
